A study of Mus musculus with 18 samples.

Results

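The results below compare ribosome footprints with mRNA in mouse cortical neurons carrying MTOR with the amino acid substitution C1483Y, across all 24035 named genes of the deposited tables. The embryos were C57BL/6. MTOR constructs entered the cortex by in utero electroporation at embryonic day 14, and electroporated neurons were collected by flow cytometry at embryonic day 18. Every group carried an added MTOR construct, WT, C1483Y or L2427P. The construct's promoter and any pooling of embryos were not stated in the labels. Of the 18 libraries, 6 are from C1483Y neurons: 3 of footprints and 3 of mRNA. Footprint replicates 1 and 2 were compared with the 3 mRNA libraries for all genes. Footprint replicate 3 was used only for the first 5400 genes in the order of the files, which ends at Cyb5rl, because its values are shifted against the gene names after that point. Nothing states that replicates came from separate animals, so the p-values measure the spread between libraries, which may be technical.

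A ribosome shields the stretch of mRNA it is reading from nuclease, so sequencing the shielded pieces shows which mRNAs are being translated, and dividing by the mRNA level gives footprints per unit of message. The mTOR kinase promotes translation, above all of messages that begin with a terminal oligopyrimidine (TOP) motif, a C followed by a run of C and T at the very start of the transcript. These messages encode the ribosomal proteins and several elongation factors. Footprints come mainly from coding sequence and mRNA fragments from the whole transcript, so a gene's ratio also depends on how much of its transcript is coding. Values are CPM (a gene's counts divided by the counts on all named genes of that library and scaled to 1e6), so each ratio is relative to the other genes of the same libraries and gives no absolute rate of translation.

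The 2 footprint libraries held 23701847 and 10785585 counts on 6521 and 8772 genes, and the 3 mRNA libraries held 49719679, 50923364 and 26648540 counts on 10022, 8402 and 5644 genes. Many expressed genes were missing from single libraries. Of the 5000 most abundant genes, 14.1% and 3.54% had a count of 0 in footprint replicates 1 and 2, and 1.52%, 6.08% and 23.2% in mRNA replicates 1, 2 and 3. The 2 footprint libraries agreed poorly, with a Pearson correlation of log2 CPM of 0.383 over 1973 genes with at least 10 counts in all 5 libraries. Footprint replicate 2 correlated more closely with the mRNA libraries (0.443 to 0.473), and replicate 1 less closely (0.171 to 0.212). The mRNA libraries correlated with each other at 0.590 to 0.687. Markers of cortical projection neurons, 12 of 14 with enough counts to test, made up 1.12% and 1.30% of the footprint counts and 0.631% to 0.705% of the mRNA counts. Markers of cortical progenitors, 10 of 12 tested, made up 0.271% and 0.209% of footprints and 0.123% to 0.139% of mRNA. Markers of astrocytes, interneurons, oligodendrocytes, microglia, mural cells and red blood cells, 17 of 55 tested, stayed at or below 0.0534% per list in every C1483Y library, and 0 of 8 endothelial markers could be tested. In sorted bulk cells, fewer cells of a type and less RNA per cell cannot be told apart.

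Cytoplasmic ribosomal protein messages were the group most clearly under-represented among footprints. The 80 genes together took up 1.94% and 1.63% of the counts in the footprint libraries. In the mRNA libraries they took up 8.69%, 7.63% and 7.40%, so their mRNA share was 4.42 times their footprint share (1.79% ± 0.219, SD, n = 2, against 7.91% ± 0.689, SD, n = 3). Messages for the microtubule protein Map1b, for Mtor itself and, as groups, for splicing factors, chromatin regulators and cortical transcription factors lay on the opposite side. Few single genes passed the test. A gene is called here when edgeR's quasi-likelihood test gave a Benjamini-Hochberg adjusted p under 0.05, with the spread estimated over 17 libraries of all 3 genotypes. Of 8737 genes tested, 28 were called (0.320%), 15 of them with lower footprints than mRNA (0.172%) and 13 with higher footprints (0.149%). An unadjusted p under 0.05 was reached by 419 genes, 4.80% of those tested, no more than the 5% that such a threshold passes by chance. The median standard error of a log2 ratio was 3.52. The split of the calls depended on the scaling. TMM scaling was replaced by 2 forms of DESeq2's size factors: the positive-count form, which also uses genes at 0 in some libraries, and the default form, which uses only genes above 0 in every library. The positive-count form gave 2 lower against 33 higher calls and moved the median log2 ratio of all genes tested from -0.40 to 0.13. The default form gave 13 lower against 25 higher and a median of -0.23. As a description without a test, both footprint libraries lay below all 3 mRNA libraries for 1406 genes (16.1%) and above them for 878 genes (10%). Among the 1973 genes with at least 10 counts in all 5 libraries, which are more abundant and closer to complete, 16.0% lay below and 20.5% above, and the median log2 ratio was 0.48.

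**Figure D1:**
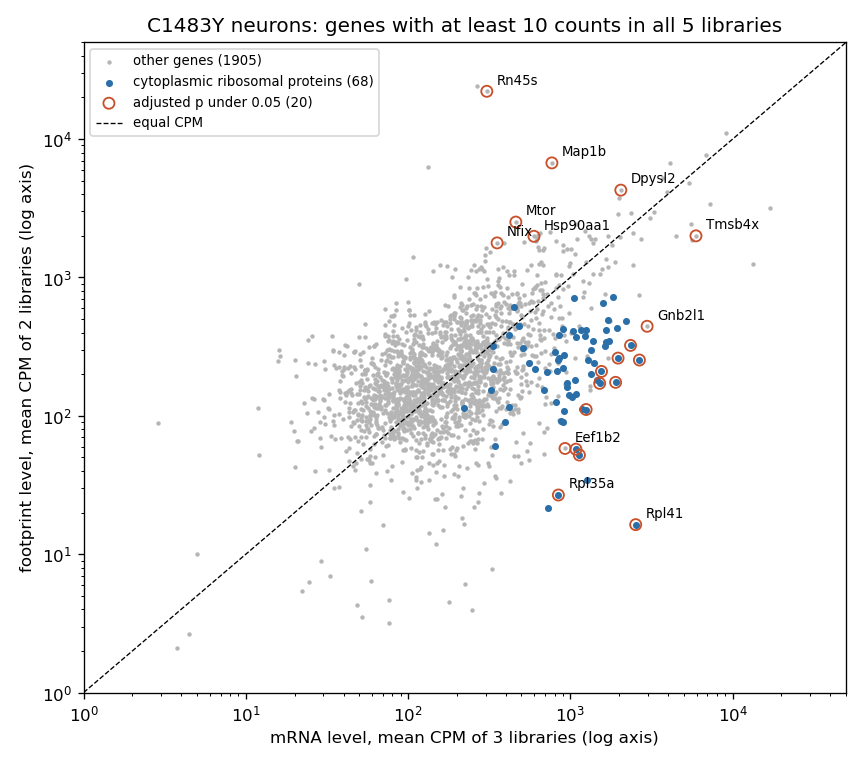
Mean footprint CPM of 2 libraries against mean mRNA CPM of 3 libraries, both on log axes, for the 1973 genes with at least 10 counts in all 5 C1483Y libraries. Blue points are ribosomal protein genes, rings mark the 20 called genes among these, and the dashed line is equal CPM. Rpl41 lies farthest below the line among the called genes and Rn45s farthest above it.

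The first bases of the messages are shown because mTOR acts on TOP messages through them. Each stretch of 30 bases runs from 5 before to 25 after the annotated transcript start of the RefSeq annotation (GRCm38.p6, the assembly of mm10), 5′ to 3′ on the gene's strand. Capitals mark a C followed by at least 4 more C or T, starting no more than 2 bases from the annotated start.
Rpl35 (chr2:39005107-39005136, minus strand): ctttCCTCTTTCTCTCgaaccaggctgctt
Rpl35a (chr16:33056477-33056506, plus strand): ccttCCTCTTTCCgccatcttggcgcctgt
Rps24 (chr14:24490673-24490702, plus strand): ggtCCTTCCTTgcgcgttgatatgattggt
Eef1a1 (chr9:78481700-78481729, minus strand): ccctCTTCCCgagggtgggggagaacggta
Mtor (chr4:148448577-148448606, plus strand): ccaCCTCCCTggcctagaagacagcgggga
Rpl41 (chr10:128549144-128549173, minus strand): ggctcggaagtgacgacaccgagcacgcca
Map1b (chr13:99516578-99516607, minus strand): aggggggacgcagggggcggagcggagaca
For Rpl35a and Rps24, 1 of several annotated starts is shown. Such a run was found at an annotated start of 20 of 57 ribosomal protein genes that matched the promoter table (35.1%), against 2863 of 27025 genes in the whole table (10.6%) and 814 of 6646 genes tested (12.2%). Of the called genes it was found in 4 of 10 with lower footprints and in 2 of 7 with higher footprints. Among genes with at least 10 counts in all 5 libraries, the run was found in 11.2% of 196 genes whose footprints lay below mRNA without overlap, ribosomal proteins left out, and in 13.5% of 318 genes whose footprints lay above. The window was searched on the transcript strand only, and a gene without a match lacks these letters at the annotated start and no more.

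Rpl41 had the lowest ratio among called genes counted in every library. It encodes a very short basic protein of the large subunit and lies on chromosome 10 from 128548110 to 128549168. Its footprints stood at 10.6 and 22.1 CPM and its mRNA at 2362, 1467 and 3757 CPM. Each footprint library thus held far less than any mRNA library, and the means differed by 155-fold (16.4 ± 8.09 CPM, SD, n = 2, against 2528 ± 1154 CPM, SD, n = 3). The log2 ratio was -7.02 with a standard error of 0.71 (edgeR adjusted p = 2.975e-19).

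Of the small subunit proteins 31 of 32 were tested, and all 31 had both footprint libraries below the 3 mRNA libraries, against 16.1% of all genes tested. Among them 5 were called lower and 0 higher, and the median log2 ratio was -2.35, against -0.40 over all genes. The median was -0.58 with positive-count size factors, against 0.13 over all genes, and -2.09 with the default form, against -0.23. Rps14, which sits on the platform of the small subunit, had 139 and 210 CPM of footprints and 2269, 1744 and 1691 CPM of mRNA (log2 ratio -3.26, edgeR adjusted p = 2.449e-04). Rps7, another small subunit protein, had 341 and 166 CPM of footprints and 2166, 3107 and 2720 CPM of mRNA (log2 ratio -3.17, edgeR adjusted p = 2.449e-04). For both genes the groups lay far apart and each library of a group pointed the same way. Of 15 alternative fits, Rps14 was called in 9 and Rps7 in 8.

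The other 3 called genes of the small subunit, Rps4x, Rps20 and Rps24, had one footprint library close to 0. Rps4x had 1.22 and 103 CPM of footprints against 954 to 1463 CPM of mRNA, Rps20 had 0.717 and 114 against 808 to 1476, and Rps24 had 1.06 and 221 against 1226 to 1271. In each of them the lower value is that of footprint replicate 1, the library in which 14.1% of abundant genes were at 0. Their log2 ratios of -4.29, -4.07 and -3.30 became -3.14, -2.89 and -2.12 without that library, with adjusted p = 0.90 for each. Members that were not called lay on the same side, such as Rps6, the S6 kinase substrate, with 393 and 290 CPM of footprints against 1464, 1645 and 1891 CPM of mRNA (log2 ratio -2.06, adjusted p = 0.18). Rps10 was closer to equality, with 272 and 570 CPM of footprints against 684 to 1226 CPM of mRNA.

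Of the large subunit proteins 47 of 48 were tested, and 6 were called lower and 0 higher. Against 16.1% of all genes tested, 34 of 47 of these proteins lay below mRNA without overlap (72.3%). Their median log2 ratio was -1.96, or -0.47 with positive-count and -1.75 with default size factors. With the positive-count form 1 of the 13 called translation genes, Rpl41, was still called, and with the default form 11 of 13 were. Rpl7, an RNA-binding protein of the large subunit, had 314 and 331 CPM of footprints and 2196, 1888 and 2965 CPM of mRNA (log2 ratio -2.63, edgeR adjusted p = 0.002657). Rpl13a, which is also known from interferon-induced translational control, had 358 and 164 CPM of footprints and 2635, 1432 and 1837 CPM of mRNA (log2 ratio -2.72, edgeR adjusted p = 0.01141). Neither gene showed overlap between the assays. Rpl35 (log2 ratio -2.95) and Rpl9 (-2.72) were also called. Rpl9 had 290 and 128 CPM of footprints against 870 to 2027 CPM of mRNA. Its call was lost in 11 of 15 alternatives, including without either footprint library, and its ratio ranged from -3.29 to -0.88. Rpl35a (-4.77) was called with 0.506 CPM in footprint replicate 1 and 53.0 in replicate 2, against 769 to 962 CPM of mRNA, and its ratio was -3.59 without replicate 1 (adjusted p = 0.90).

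The large subunit list was not uniform. In 13 of its 47 tested members the assays overlapped. Rpl15 had 692 and 534 CPM of footprints and 448, 648 and 262 CPM of mRNA, Rpl28 had 313 and 322 against 312, 424 and 264, and Rpl10a had 651 and 234 against 707, 340 and 409. Their log2 ratios of 0.61, 0.12 and 0.05 lie apart from the list's median. Ribosomal protein genes have many processed pseudogenes with near-identical sequence, so counts of single members are uncertain. Reads without a unique alignment made up 49.9%, 53.4% and 71.1% of all counted entries in the mRNA libraries and 27.8% in footprint replicate 2, with no value in footprint replicate 1, and their part in the result was not tested.

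**Figure D2:**
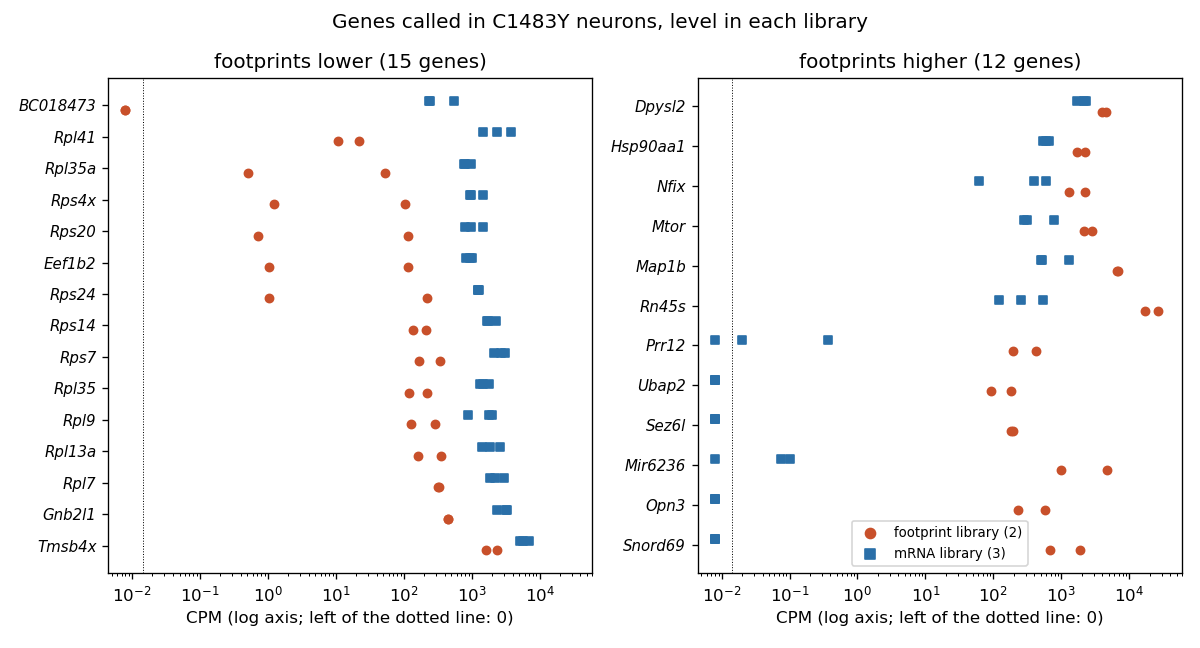
CPM in each of the 2 footprint libraries (circles) and 3 mRNA libraries (squares) on a log axis for 27 of the 28 called genes, with values of 0 drawn left of the dotted line. Of the 15 genes with lower footprints, 5 translation genes have one footprint library between 0.506 and 1.22 CPM; among the 12 genes with higher footprints that are drawn, 6 have mRNA libraries at or near 0.

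Of 19 listed elongation factors and other TOP messages, 17 were tested, 2 were called lower and 0 higher. Without overlap, 8 lay below mRNA (47.1%) and 2 above (11.8%), against 16.1% and 10% of all genes tested. Gnb2l1, which encodes the ribosome scaffold RACK1, had 444 CPM in both footprint libraries and 3365, 2388 and 3166 CPM of mRNA (log2 ratio -2.53, edgeR adjusted p = 7.147e-04). Eef1b2, an exchange factor that recharges eEF1A, had 1.06 and 115 CPM of footprints and 816 to 1028 CPM of mRNA (log2 ratio -3.80, edgeR adjusted p = 0.01724, and -2.62 with adjusted p = 0.90 without footprint replicate 1). The list's median log2 ratio was -0.89. It turned to 0.68 with positive-count size factors and was -0.70 with the default form.

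Eef1a1, which delivers aminoacyl-tRNA to the ribosome, had 3694 and 3045 CPM of footprints and 8462, 6758 and 6624 CPM of mRNA. Eef2, which moves the ribosome along the message, had 2038 and 1974 CPM of footprints and 4357, 3902 and 5156 CPM of mRNA. Both lay below mRNA without overlap, about 2.16-fold and 2.23-fold in the means, but neither was called (log2 ratios -0.91 and -0.93, adjusted p = 0.18 and 0.43), and the ratios turned to 0.68 and 0.57 with positive-count size factors but were -0.70 and -0.74 with the default form. Pabpc1, the poly(A)-binding protein, had 220 and 180 CPM of footprints and 57.3, 110 and 0 CPM of mRNA, so this TOP gene lay on the other side (log2 ratio 1.96, adjusted p near 1). Vimentin (Vim), a filament protein with a TOP message, also lay above, with 632 and 611 CPM of footprints against 106, 162 and 263 CPM of mRNA.

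Of 35 tested initiation factors and 4E-BPs, 0 were called by edgeR. Without overlap, 9 lay below and 4 above (25.7% and 11.4%), against 16.1% and 10% of all genes tested. Eif3a, a scaffold subunit of eIF3, had 458 and 481 CPM of footprints and 101, 47.8 and 274 CPM of mRNA. Eif4h, a helper of the eIF4A helicase, had 182 and 247 against 584, 531 and 395.

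Mtor, the gene of the construct, was called with higher footprints. Its footprints stood at 2881 and 2147 CPM and its mRNA at 281, 317 and 787 CPM, without overlap and 5.45-fold apart in the means (2514 ± 520 CPM, SD, n = 2, against 461 ± 283 CPM, SD, n = 3). The log2 ratio was 2.74 with a standard error of 0.47 (edgeR adjusted p = 9.96e-06). The gene lies on chromosome 4 from 148448582 to 148557685, and the counts do not separate the construct from the mouse gene. The ratio was 2.83 in WT and 2.36 in L2427P neurons, which also carry a construct.

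Of 46 genes of the mTOR complexes and their signalling 37 were tested, 2 were called higher, Mtor among them, and 0 lower, and 5 lay below and 3 above without overlap (13.5% and 8.11%), close to the shares over all genes tested. Akt1, the kinase upstream of mTORC1, had 83.8 and 104 CPM of footprints and 782, 1171 and 602 CPM of mRNA, and was not called (log2 ratio -2.99, adjusted p = 0.70). Ddit4, a stress-induced inhibitor of mTORC1, overlapped, with 312 and 298 CPM of footprints against 161, 108 and 320 CPM of mRNA. Transcripts of several pathway genes were counted too thinly to compare: Rps6kb1, the S6 kinase, was at 0 in both footprint libraries and at 89.5, 0 and 12.0 CPM in mRNA.

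Map1b, a microtubule-binding protein of growing axons, was the protein-coding gene with the smallest adjusted p of the comparison. It had 6784 and 6677 CPM of footprints and 527, 500 and 1283 CPM of mRNA. The footprint libraries nearly coincided and lay far above each mRNA library, 8.74-fold in the means (6730 ± 75.9 CPM, SD, n = 2, against 770 ± 444 CPM, SD, n = 3; log2 ratio 3.42, standard error 0.32, edgeR adjusted p = 4.395e-23). Map1b lies on chromosome 13 from 99421464 to 99516602. Dpysl2 (CRMP2), which binds tubulin in growth cones, was called as well, with 4607 and 3946 CPM of footprints and 1700, 2130 and 2313 CPM of mRNA (log2 ratio 1.29, edgeR adjusted p = 0.0237). The Dpysl2 call held in only 7 of 15 alternatives.

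All 32 microtubule regulators were tested, and 2 were called higher and 0 lower. Without overlap, 11 lay above (34.4%) and 8 below (25%), so the list ran both ways. All genes tested had 10% above and 16.1% below, and those with at least 10 counts in all 5 libraries 20.5% and 16.0%. The list's share of counts was 2.79% and 2.90% in footprints and 1.76% to 2.00% in mRNA. Dcx (doublecortin), needed for neuronal migration, had 2115 and 1555 CPM of footprints and 516, 861 and 470 CPM of mRNA. The small tubulin-sequestering protein Stmn1 lay on the other side, with 2708 and 2181 CPM of footprints and 5338, 6074 and 5109 CPM of mRNA. Neither was called (adjusted p = 0.32 and 0.19).

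Among 36 actin and growth cone genes 1 was called lower, 10 lay above without overlap (27.8%) and 8 below (22.2%), against 10% and 16.1% of all genes tested and 20.5% and 16.0% of the well-covered ones. Tmsb4x, which encodes thymosin beta 4, a peptide that binds actin monomers, had 2353 and 1646 CPM of footprints and 5752, 6984 and 5099 CPM of mRNA (log2 ratio -1.37, edgeR adjusted p = 0.00398; 0.29 with positive-count and -1.16 with default size factors). Its relative Tmsb10 had 723 and 777 CPM of footprints against 1959, 2693 and 3286 CPM of mRNA, and was not called. Fscn1 (fascin), which bundles actin in filopodia, had 1546 and 1486 against 483, 333 and 137, and Cfl1 (cofilin), which severs filaments, had 2275 and 1553 against 738, 478 and 641. Tubb3, a neuronal tubulin, had 4298 and 6134 CPM of footprints against 2784 to 4219 CPM of mRNA, just above without overlap and not called. Actb overlapped, with 5858 and 9614 against 4701 to 8909.

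Transcription factors of cortical projection neurons lay above mRNA in many cases. Of 34, 29 were tested, 1 was called higher, 10 lay above mRNA without overlap (34.5%, against 10% of all genes tested and 20.5% of the well-covered ones) and 0 below. Their share of counts was 2.03% and 2.12% in footprints and 1.11%, 1.21% and 1.24% in mRNA. Nfix, a nuclear factor of neural differentiation, had 2245 and 1311 CPM of footprints and 397, 602 and 61.5 CPM of mRNA (log2 ratio 2.47, edgeR adjusted p = 0.01415). The Nfix call held in 9 of 15 alternatives. Tcf4, a basic helix-loop-helix factor, had 1861 and 1801 CPM of footprints and 735, 846 and 873 CPM of mRNA. Each footprint library exceeded the highest mRNA library, but the gene was not called (adjusted p = 0.66).

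Of 48 tested splicing factors 20 lay above without overlap (41.7%) and 3 below (6.25%), against 10% and 16.1% of all genes tested. Of the well-covered genes 20.5% lay above and 16.0% below. The splicing factors had 0 members called by edgeR. Their median log2 ratio was 1.03, and 1.12 over the 33 well-covered members, against 0.48 over all well-covered genes. Hnrnpk, an RNA-binding protein of splicing and translation, had 2692 and 2162 CPM of footprints and 1059, 1434 and 796 CPM of mRNA. Hnrnpa2b1, which also sorts mRNA into axons, had 1053 and 1184 against 102, 144 and 183. The short core subunit Snrpg lay on the other side, with 0.295 and 6.49 CPM of footprints against 371 to 436 CPM of mRNA.

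Chromatin and neurodevelopmental disorder genes had 17 of 48 tested members above without overlap (35.4%) and 2 below (4.17%). All genes tested had 10% above and 16.1% below, and the well-covered ones 20.5% and 16.0%. The chromatin list had 0 members called by edgeR and a median log2 ratio of 1.36, or 1.34 over its 28 well-covered members. It made up 1.07% and 1.12% of footprint counts and 0.454% to 0.603% of mRNA counts. Smarca4, the motor of BAF remodelling complexes, had 1611 and 1024 CPM of footprints and 344, 294 and 253 CPM of mRNA. Trrap, a scaffold of histone acetyltransferase complexes, had 411 and 655 against 84.1, 83.3 and 142.

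Adhesion and guidance genes had 12 of 52 above (23.1%) and 3 below (5.77%), and synaptic vesicle genes 7 of 30 above (23.3%) and 2 below (6.67%), with 0 called by edgeR in either list. Both shares above exceeded the 10% of all genes tested and were close to the 20.5% of well-covered genes. That second set holds only 31 of the 52 and 6 of the 30. Adhesion and guidance genes made up 1.93% and 2.00% of footprint counts and 1.17% to 1.40% of mRNA counts. Synaptic vesicle genes made up 0.430% and 0.370% of footprint counts and 0.192% to 0.231% of mRNA counts. Ncam1, a neural adhesion molecule, had 2002 and 2024 CPM of footprints and 539, 630 and 726 CPM of mRNA (log2 ratio 1.90, adjusted p = 0.094). Nrp1, the semaphorin co-receptor, had 1390 and 1006 against 363, 440 and 347. Among 27 tested chaperones 1 was called: Hsp90aa1, the inducible HSP90, had 1713 and 2254 CPM of footprints and 544, 653 and 593 CPM of mRNA (log2 ratio 1.95, edgeR adjusted p = 0.004053).

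**Figure D3:**
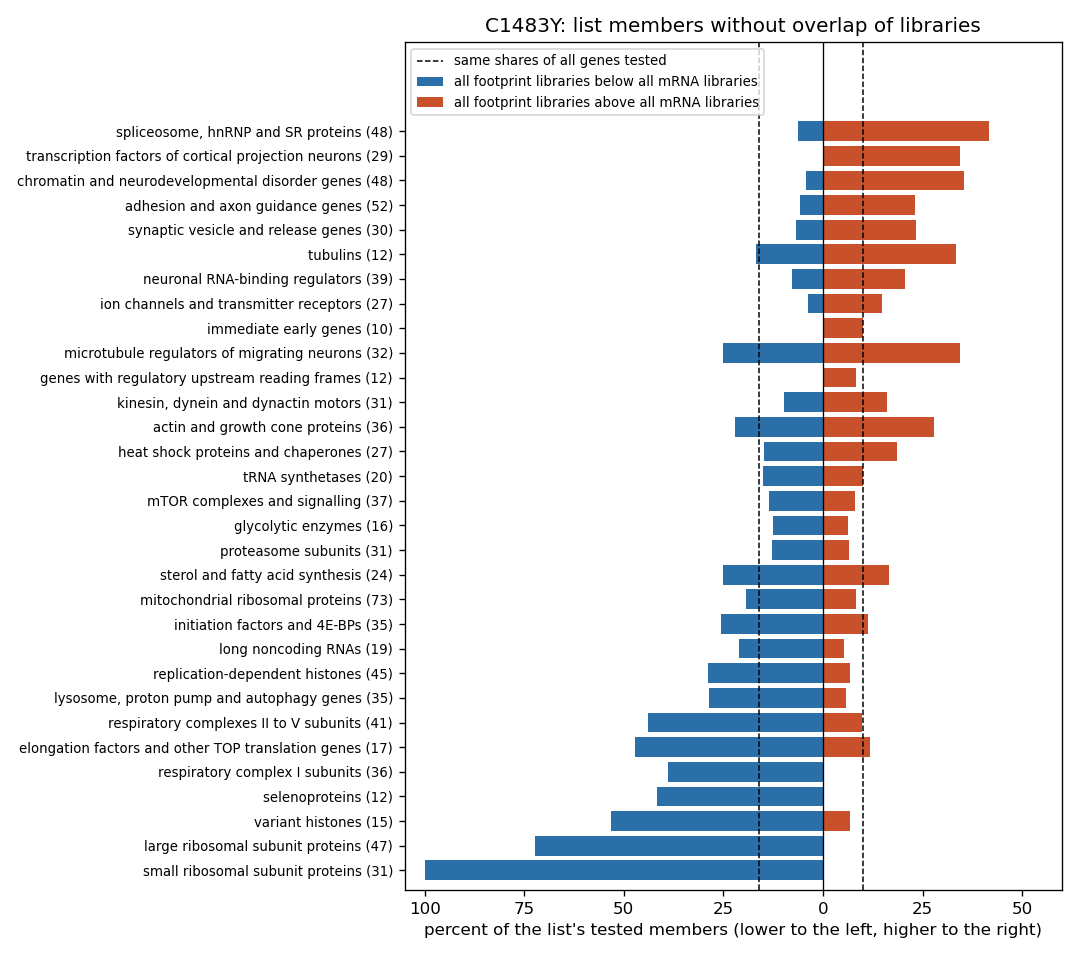
Percent of the tested members of each gene list whose footprint libraries all lay below (left, blue) or all above (right, orange) the mRNA libraries, for lists with at least 10 tested members, whose number is in parentheses. Dashed lines are the shares over all genes tested, 16.1% and 10%; the small ribosomal subunit reaches 100% on the left, and splicing factors reach 41.7% on the right.

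Subunits of the respiratory chain lay below mRNA in many cases. In complex I, 14 of 36 lay below without overlap (38.9%) and 0 above. In complexes II to V, 18 of 41 lay below (43.9%) and 4 above (9.76%). These shares stand beside 16.1% below and 10% above over all genes tested, and 16.0% and 20.5% over the well-covered ones. None of the 77 was called by edgeR. Complex I took up 0.312% and 0.350% of footprint counts and 0.570%, 0.632% and 0.683% of mRNA counts, and complexes II to V took up 0.905% and 0.767% against 1.60%, 1.30% and 1.13%. Their median log2 ratios were -0.94 and -0.93, and the second turned to 0.51 with positive-count size factors and was -0.75 with the default form. Over the 13 and 26 well-covered members the medians were -0.07 and -0.72. Cox5b, a subunit of cytochrome oxidase, had 164 and 196 CPM of footprints and 495, 561 and 552 CPM of mRNA, while Cox5a lay above, with 948 and 210 against 111, 117 and 77.5. In many of these genes, such as Ndufb9 with 0.338 and 87.7 CPM of footprints against 288 to 544 CPM of mRNA, the 2 footprint libraries themselves disagreed.

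Mitochondrial ribosomal proteins do not belong to the cytoplasmic ribosome. They had 14 of 73 below (19.2%) and 6 above (8.22%), near the 16.1% and 10% of all genes tested. Only 8 of them had at least 10 counts in all 5 libraries, and those had a median log2 ratio of -0.02, against -1.52 over all 73. Variant histones and high-mobility-group proteins had 8 of 15 below (53.3%), such as H2afz with 225 and 191 CPM of footprints and 1082, 962 and 782 CPM of mRNA. Their median of -1.32 turned to 0.34 with positive-count size factors and was -1.11 with the default form. Selenoproteins, which read a stop codon as selenocysteine, had 5 of 12 tested members below and 0 above. Gpx4, an enzyme that reduces lipid peroxides, had 0.295 and 22.3 CPM of footprints and 439, 433 and 332 CPM of mRNA.

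**Figure D4:**
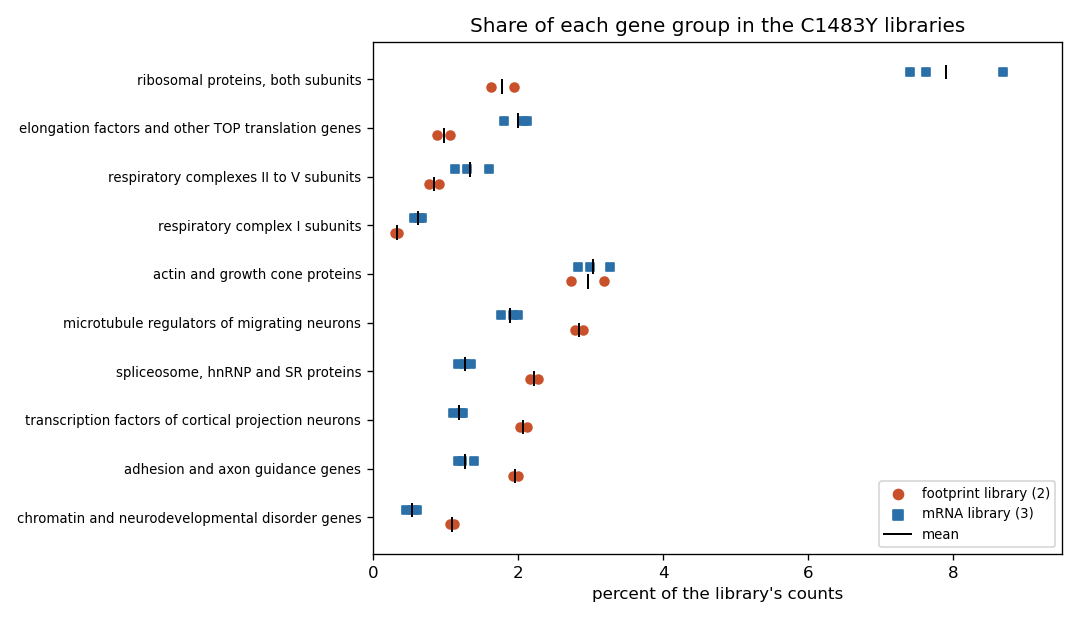
Percent of a library's counts held by each of 10 gene groups in the 2 footprint libraries (circles) and the 3 mRNA libraries (squares) of C1483Y neurons, with short lines at the means. Ribosomal proteins stand at 1.63% to 1.94% of footprints and 7.40% to 8.69% of mRNA, while the actin list overlaps between the assays.

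The next lists are set beside 10% above and 16.1% below over all genes tested, and 20.5% and 16.0% over the well-covered ones. Tubulins had 4 of 12 above (33.3%) and 2 below (16.7%). Proteasome subunits had 2 of 31 above (6.45%) and 4 below (12.9%), and glycolytic enzymes 1 of 16 above (6.25%) and 2 below (12.5%). The 14-3-3 proteins had 3 of 6 above and 0 below, for example Ywhag with 1374 and 1794 CPM of footprints and 623, 564 and 728 CPM of mRNA. Of 12 tested genes with regulatory upstream reading frames, 0 lay below and 1 above (8.33%). In only some genes of this list is the main frame translated more when initiation is impaired. Atf4, the stress-response factor of this class, had 159 and 21.5 CPM of footprints and 141, 46.5 and 317 CPM of mRNA, so its ratio could not be placed (log2 ratio -0.58, with the sign reversed under 4 alternatives). Adk, which encodes adenosine kinase, had 63.4 and 92.8 CPM of footprints and 30.8, 0 and 0 CPM of mRNA, and was not called.

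RNAs that encode no protein appeared in both assays, where a count shows fragments in the library and not translation. Small nucleolar RNAs made up 1.16% and 1.04% of footprint counts and 0.0642%, 0.0645% and 0.110% of mRNA counts. The ribosomal RNA precursor Rn45s had 17300 and 27020 CPM in footprints and 539, 121 and 257 CPM in mRNA (log2 ratio 6.34, edgeR adjusted p = 0.04081). Its call was lost without any 1 of the 5 C1483Y libraries and held in 4 of 15 alternatives. Snord69, a small nucleolar RNA on chromosome 14 from 31014293 to 31014351, had 1893 and 682 CPM in footprints and 0 in all 3 mRNA libraries, at least 54600-fold higher against a floor of 3 counts over the 3 libraries together (edgeR adjusted p = 1.086e-35). It was at 0 to 0.02 CPM in the mRNA of the other genotypes too. Rnu11, a small nuclear RNA of the minor spliceosome, had 12910 and 18110 CPM in footprints and 73.6, 0.0196 and 0 CPM in mRNA, and was not called. Rpph1, the RNA of ribonuclease P, lay the other way, with 3990 and 2363 CPM in footprints and 15690, 16230 and 18780 CPM in mRNA.

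Mir6236 was called, with 977 and 4741 CPM in footprints and 0 to 0.101 CPM in mRNA. It kept the call in 6 of the 13 alternatives that gave a value and lost it without any 1 of the 3 mRNA libraries. Its mature sequence is shown because it is the only called microRNA gene, with bases 2 to 8, the seed, in capitals (RefSeq, GRCm38.p6, chr9:110281353-110281371, plus strand).
mmu-miR-6236: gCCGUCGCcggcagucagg
Footprint libraries are selected by size from nuclease-treated RNA, and no label says whether reads of small RNAs were removed. The long noncoding RNA Malat1, a nuclear transcript, had 966 and 549 CPM in footprints and 1496, 2072 and 1339 CPM in mRNA, which was not called and whose direction turned with positive-count size factors, though not with the default form. Meg3, an imprinted long noncoding RNA, had 0 and 12.2 CPM in footprints and at most 0.0201 CPM in mRNA, too few counts to test. BC018473, annotated as a long noncoding RNA on chromosome 11 from 116752167 to 116757883, had 0 in both footprint libraries and 248, 559 and 234 CPM of mRNA, at least 3990-fold lower in footprints against a floor of 3 counts over both libraries (edgeR adjusted p = 5.036e-08).

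Opn3, Sez6l, Ubap2 and Prr12, also called, paired moderate footprints with almost no mRNA. They had enough counts to test only through the footprint libraries, as did Snord69 and Mir6236, and BC018473 only through mRNA. The calls of these genes are therefore given as a description. Opn3, an opsin gene, had 231 and 584 CPM of footprints and 0 in all 3 mRNA libraries, as in all 6 mRNA libraries of WT and L2427P. Sez6l, a neuronal membrane protein, had 184 and 195 CPM of footprints and 0 in the 3 mRNA libraries, but 14.3 to 140 CPM in WT mRNA. Ubap2 had 93.3 and 181 CPM of footprints and 0 in mRNA, and Prr12 had 423 and 198 CPM of footprints and 0 to 0.373 CPM in mRNA. In the mRNA of the other genotypes Sez6l exceeded 1 CPM in 5 of 6 libraries and Prr12 in 4 of 6. Of the alternatives that gave a value, Opn3 was called in 12 of 13, Sez6l in 7 of 13, Prr12 in 8 of 13 and Ubap2 in 8 of 14. Sez6l, Prr12 and Ubap2 lost the call without any 1 of the 3 mRNA libraries. The labels state no strand setting, so reads of overlapping genes cannot be told apart.

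For the first 5400 genes of the files all 3 footprint libraries could be compared with the 3 mRNA libraries, scaled to the counts of those genes only (CPM of the stretch). Of 1566 genes tested, 2 were called (0.128%), both lower in footprints: BC018473 and the unnamed transcript 2900097C17Rik. An unadjusted p under 0.05 was reached by 71 genes (4.53%). BC018473 was at 0 in the third footprint library as well. 2900097C17Rik had 164, 3.11 and 7.31 CPM of the stretch in footprints and 3402, 2894 and 4221 in mRNA (log2 ratio -5.74, edgeR adjusted p = 0.01194). Without footprint replicate 3, on the same genes, 1 gene was called. No ribosomal protein gene falls in this alphabetical stretch. All 3 footprint libraries lay below the mRNA libraries for 203 genes (13.0%) and above them for 123 genes (7.85%).

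Of 280 genes that lay below mRNA without overlap in footprint replicates 1 and 2, replicate 3 also lay below for 203 (72.5%) and above for 16 (5.71%). Of 162 that lay above, replicate 3 also lay above for 123 (75.9%) and below for 7 (4.32%). Over all 1566 genes tested, replicate 3 lay below the mRNA libraries for 24.4% and above for 27.9%. The same mRNA libraries served to choose the 280 and 162 genes, so the shares among them are no independent check. In CPM of the stretch, Akt1 had 448, 582 and 211 in footprints and 4166, 6326 and 3329 in mRNA. Calm3, a calmodulin gene chosen after its values were seen, had 1004, 681 and 694 against 8377, 5566 and 7410. On the opposite side Cfl1 had 12170, 8683 and 9485 in footprints and 3931, 2582 and 3541 in mRNA, and Cdh2, which encodes N-cadherin, had 6529, 5609 and 6728 against 1612, 1190 and 1981. None of the 4 was called (edgeR adjusted p from 0.11 to 0.28). Of 26 tested subunits of complexes II to V, 13 lay below and 2 above without overlap in all 3 footprint libraries. Of 16 chromatin genes, 0 lay below and 4 above, namely Arid1a, Chd8, Asxl1 and Adnp. The matching shares over all 1566 genes tested were 13.0% below and 7.85% above. Actb overlapped, with 31340, 53740 and 33430 in footprints and 25410 to 47480 in mRNA.

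In the other genotypes the called genes had ratios of the same sign. Of the 15 genes called lower in C1483Y, all 15 had a ratio below 0 in WT and in L2427P, and 12 and 10 of them were called there. Of the 13 called higher, all 13 lay above 0 in both, and 8 and 10 were called. Over all 8737 genes tested, 64 were called in WT and 56 in L2427P, and the median log2 ratios were -0.35 and 0.22. Eef1b2, Rpl35a, Rpl9, Prr12 and Sez6l were among the genes called in C1483Y and in neither other genotype. For each of these 5 the difference between C1483Y and the mean of WT and L2427P was not called (adjusted p near 1). Map1b had a log2 ratio of 3.45 in WT and 3.83 in L2427P, beside 3.42 in C1483Y. Ribosomal proteins took up 1.51% to 1.81% of counts in the 6 footprint libraries of the other genotypes and 5.62% to 10.1% in their 6 mRNA libraries, which gives mRNA shares 5.32 times the footprint share in WT and 4.09 times in L2427P, beside 4.42 times in C1483Y.

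The difference of the ratio itself was called by edgeR for 1 of 8737 genes (0.0114%), Rpl41, and 214 genes (2.45%) reached an unadjusted p under 0.05. Rpl41 had a log2 ratio of -7.02 in C1483Y, -4.02 in WT and -3.78 in L2427P, a difference of -3.12 with a standard error of 0.65 (edgeR adjusted p = 0.01173). Its footprints stood at 10.6 and 22.1 CPM in C1483Y, at 292, 136 and 27.9 CPM in WT and at 242, 138 and 94.7 CPM in L2427P. Both C1483Y values were below all 6 others, although WT replicate 3 came close. Its mRNA overlapped between genotypes, at 1467 to 3757 CPM in C1483Y, 2127 to 4296 CPM in WT and 1595 to 2989 CPM in L2427P. The call was lost without footprint replicate 1 (difference -2.77, adjusted p near 1) and without mRNA replicate 3 (-2.88, adjusted p = 0.19).

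**Figure D5:**
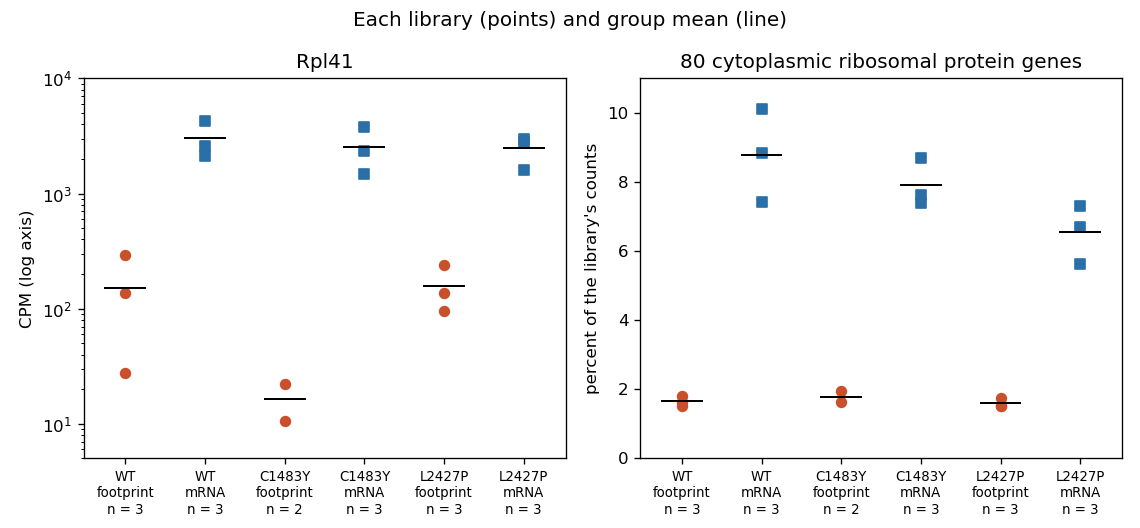
Left, Rpl41 CPM on a log axis; right, percent of counts held by the 80 ribosomal protein genes; points are libraries of each genotype and assay, lines are means, and the number of libraries is under each group. The 2 C1483Y footprint values of Rpl41, 10.6 and 22.1 CPM, are the lowest of the 8 footprint libraries, while the ribosomal protein shares of the footprint libraries all lie between 1.51% and 1.94%.

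The calls depended on which libraries were used. Without footprint replicate 1, which leaves 1 footprint library, 1 of the 13 called translation genes was still called, Rpl41, and 8 of the 15 other genes. Without footprint replicate 2, 7 of 13 and 12 of 15 were still called. Rpl41, Map1b and Mtor were called in 14 of 15 alternatives, the exception being the fit with the displaced library added. BC018473 and Snord69, each at 0 in one assay, were called in all 14 alternatives that gave a value. The remaining calls held less often, such as Rpl13a and Rpl35 in 7 of 15, Eef1b2 and Tmsb4x in 8, Rpl7 and Gnb2l1 in 9, and Hsp90aa1 in 11.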

How the data were processed

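Gene-level read counts, whole in 17 libraries, are used as the authors deposited them. Footprint replicate 3 of C1483Y, whose deposited values are not all whole, was treated as estimated counts and rounded. Bowtie 1.1.2, TopHat2 2.1.1 and HTSeq, with genome build mm10, are listed per the submitters' processing notes, which state no annotation or strand setting here. Per the labels' protocols, footprints were made with RNase I and a sizing column and mRNA was fragmented by heat. No molecular identifiers are mentioned, so floors cover counting error only. The 5 summary entries and 27 names turned into dates were left out. Reads outside any gene made up 8.43% of the entries of C1483Y footprint replicate 2 and 7.06% to 14.1% of its mRNA libraries.

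Gene order was checked in windows of 300 genes against the other footprint libraries. In footprint replicate 3 of C1483Y 46 of 58 windows matched best at an offset, 0 of 12 up to gene 5400. In replicates 1 and 2, 0 of 58 did. The first window tested began at gene 1801, so the order of earlier genes, 2900097C17Rik among them, was not checked.

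Genes were kept by filterByExpr (minimum count 10, the 5 C1483Y libraries), scaled by TMM and tested with edgeR 4.0.16 (R 4.3.3) in a model with a mean for each of 6 groups. DESeq2 1.42.0 was an alternative, with positive-count size factors. Names rule: the 10 highest and 10 lowest ratios among called genes with at least 10 counts in all 5 libraries, up to 4 called members per list, and 10 genes always given; list members and other called genes beyond it were chosen after their values were seen. The members and all 33 gene lists and 9 marker lists were chosen with earlier results of these data known. Of the symbols, 22550 matched RefSeq. Protein length was not analysed here, and 1 called gene is not reported here. All counts of the WT footprint replicate 3, which enters the shared spread, are multiples of 3.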

Additional observations from a re-analysis of the deposited data

Results flagged for a closer look

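The difference in the Rpl41 ratio between C1483Y and the mean of the other genotypes, -3.12 on the log2 scale (edgeR adjusted p = 0.01173), stood out because the test of the difference itself passed the threshold. Rpl41 footprints were at 10.6 and 22.1 CPM in the 2 usable C1483Y libraries and at 27.9 to 292 CPM in the 6 libraries of the other genotypes. Under the 14 alternatives that gave a value, the difference ranged from -3.70 to -2.66 and was called in 6. Groups held 2 or 3 libraries each, so single libraries were not tested as outliers.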

How the results depend on the processing

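Against 28 calls (15 lower, 13 higher), the counts of all, lower and higher calls were 35, 2 and 33 with DESeq2's positive-count size factors, 42, 30 and 12 with library totals, 13, 4 and 9 without a filter, 13, 9 and 4 among genes with at least 10 counts in all 5 libraries, 765, 579 and 186 with DESeq2's Wald test, 2, 1 and 1 with the displaced library added as deposited, and 137, 49 and 88 with the 5 C1483Y libraries alone. They were 38, 13 and 25 with DESeq2's default size factors, an alternative chosen after seeing the data. Leaving out 1 library gave 13 to 52, 4 to 40 and 6 to 14. The lowest count of lower calls came without footprint replicate 1 and the highest without replicate 2.

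With a replicate block the counts were 19, 15 and 4, of which 16 were among the 28. Same-numbered footprint and mRNA libraries showed no shared deviation from their group means (correlations from -0.05 to -0.001). The spread between libraries could hide a shared sample, as the C1483Y footprint libraries correlated with each other at only 0.383. The deviations of those footprint libraries also mirror each other, so they are not separate checks. Whether same-numbered libraries came from the same cells was therefore not decided.

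For the first 5400 genes, 2 calls became 1 without footprint replicate 3, with positive-count size factors and without a filter, 49 with DESeq2's Wald test and 13 with the 6 C1483Y libraries alone; leaving out 1 library gave 1 to 2, and the replicate block gave 3. The 1 call for the difference between genotypes became 0 with positive-count size factors (333 genes at an unadjusted p under 0.05), without a filter (486), with at least 10 counts in all 5 libraries (13), with the replicate block (31) and with the displaced library (172), and 518 with DESeq2's Wald test; leaving out 1 library gave 0 to 22.

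Of the 28 called genes, 27 kept their direction under every alternative that gave a value; Tmsb4x turned to 0.29 with positive-count size factors in both edgeR and DESeq2. Among genes always given, the same setting turned Eef2 to 0.57, Eef1a1 to 0.68, Atf4 to 1.37 and Malat1 to 0.83, and leaving out 1 library moved Atf4 between -2.46 (without footprint replicate 1) and 0.44 (without footprint replicate 2), with 0.03 without mRNA replicate 3. Without footprint replicate 2 the median of all genes tested was -8.76, beside -0.40. Other values for single genes and lists kept their direction and their side of the threshold, or moved by less than the replicate spread, in 765 cases, lost the call in 171, gained it in 4 and moved in 82. Changes of sign of lists were not counted apart. Relative to all genes, elongation and initiation factor medians kept their sign in 9 of 15 alternatives, complexes II to V in 10 and ion channels in 6. Both cytoplasmic ribosomal lists kept it in 14 of 15, with highest values of 6.82 (small) and 6.91 (large subunit). The part of the design on protein length was not run. Causes were not tested.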
